A study of Mus musculus with 16 samples.

Results

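S100a8, S100a9, Ltf, Camp, Ngp, Elane, Mpo, Prtn3, Cd177 and Cxcr2 are 10 genes of granulocytes and their granules, and they were followed here in osteoclast cultures. They were taken by symbol, and each matched 1 of the 21936 genes in the deposited count table. RNA had been sequenced from 16 cultures of bone marrow cells carrying CD11b, a surface integrin of myeloid cells, kept for 3 days in M-CSF at 50 ng/ml and then given RANKL at 20 ng/ml as well. RNA was harvested once mature osteoclasts first appeared, at day 3 to 5; the sources used here do not give the day for single cultures. All 16 cultures came from C57BL/6J mouse lines and had both cytokines, per the labels' protocols. A drug against FLT3 is also named there and more samples are counted in the design text than its groups hold, but none of the 16 labels gives a drug treatment. The 4 genotypes had 4 libraries each: WT (unmodified), Ptprc KO (loss of CD45, a receptor phosphatase of blood cells), FLT3 ITD (an internal tandem duplication knocked into the gene of this receptor kinase, which leaves it active without ligand), and FLT3 ITD Ptprc KO (both changes, here the double mutant). The age and sex of the mice, the design of the alleles and whether replicates came from separate animals are not stated in the labels. The p-values therefore measure the spread between these libraries, which may be partly technical.

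Neutrophils carry ready-made proteins in granules that are filled in sequence as the cell matures in the bone marrow. Azurophil granules are loaded at the promyelocyte stage with myeloperoxidase (Mpo) and serine proteases such as neutrophil elastase (Elane) and proteinase 3 (Prtn3). Specific granules follow at the myelocyte stage, with lactoferrin (Ltf), the cathelicidin precursor (Camp) and neutrophilic granule protein (Ngp). S100a8 and S100a9 encode the subunits of calprotectin, a calcium- and metal-binding protein that fills the neutrophil cytosol and is also made by monocytes. Cd177 is a surface glycoprotein of neutrophils, and Cxcr2 is the receptor for the neutrophil-attracting chemokines Cxcl1 and Cxcl2. Osteoclasts form from precursors of the monocyte and macrophage line, and CD11b is carried by neutrophils, monocytes and macrophages alike.

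The libraries held 24211724 to 35773313 counts each. Ptprc, the targeted gene, stood at 30.8 to 86.7 CPM (counts scaled to the library total) in the 8 knockout libraries and at 230 to 543 CPM in the 8 others. Itgam, which encodes CD11b, was present in every library, at 82.6 to 367 CPM. The 10 osteoclast markers, among them Acp5 and Ctsk, were tested in full and summed to 3724 to 36056 CPM per library. FLT3 ITD replicates 1 and 3 were closer than any other pair of libraries, at a chi-square of 2.73 per gene against 12.6 for the next pair, and in FLT3 ITD replicate 2 long genes ran lower than short ones (rho −0.46 of the deviation with length, against −0.181 to 0.181 in the other libraries). With FLT3 ITD replicates 1 and 3 summed and replicate 2 left out, the median log2 fold change of the 10 genes in FLT3 ITD against WT was 0.69, against −0.07 with all libraries.

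The genes were low in these cultures, and their levels varied widely between libraries of one genotype. Together they took 0.0000765% to 0.0185% of the counts of a library. Their summed level was 2.80, 1.59, 93.1 and 45.0 CPM in WT replicates 1 to 4. It was 6.04, 53.5, 16.5 and 189 CPM in Ptprc KO, 6.55, 20.9, 10.3 and 109 CPM in FLT3 ITD, and 2.18, 13.3, 0.749 and 12.3 CPM in the double mutant. In WT, Ptprc KO and FLT3 ITD the libraries ranged from 6.55 CPM or less to 93.1 CPM or more, and the double mutant reached at most 13.3 CPM. The lowest library (double-mutant replicate 3) had 23 counts over all 10 genes and the highest (Ptprc KO replicate 4) had 5294. In bulk RNA, fewer cells of a type and less RNA per cell cannot be told apart.

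Per transcript length, on the deposited TPM scale (transcript abundance scaled for length and library total), the mean levels over the 16 libraries ran in the order S100a9 at 66.9, S100a8 at 34.4 and Ngp at 23.6 TPM. Ltf followed at 4.62 and Camp at 3.23 TPM. Elane (1.01 TPM), Cxcr2 (0.937), Mpo (0.789), Cd177 (0.643) and Prtn3 (0.506) came last. The SD over libraries was close to the mean or above it for every one of them, from 99.9 TPM for S100a9 to 0.576 TPM for Prtn3, so no pair of neighbours in this order was apart between libraries. Within libraries the order was clearer at the top. S100a9 was above S100a8 in 13 of 16 libraries, S100a8 above Ngp in 15, Ngp above Ltf in 14 (median ratio 5.45 where both were above 0), Ltf above Camp in 12 and Camp above Elane in 11. Further down, Elane was above Cxcr2 in 7 of 16 libraries and Mpo above Cd177 in 6. These orders are those of the deposited TPM, which are not the deposited counts rescaled for length. The defining surface marker Ly6g, a protein of mature mouse neutrophils, was nearly absent, with 7 counts in all 16 libraries together, of which 3 lay in Ptprc KO replicate 4. Cxcr1, the sister receptor of Cxcr2, had 4 counts in all.

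**Figure D1:**
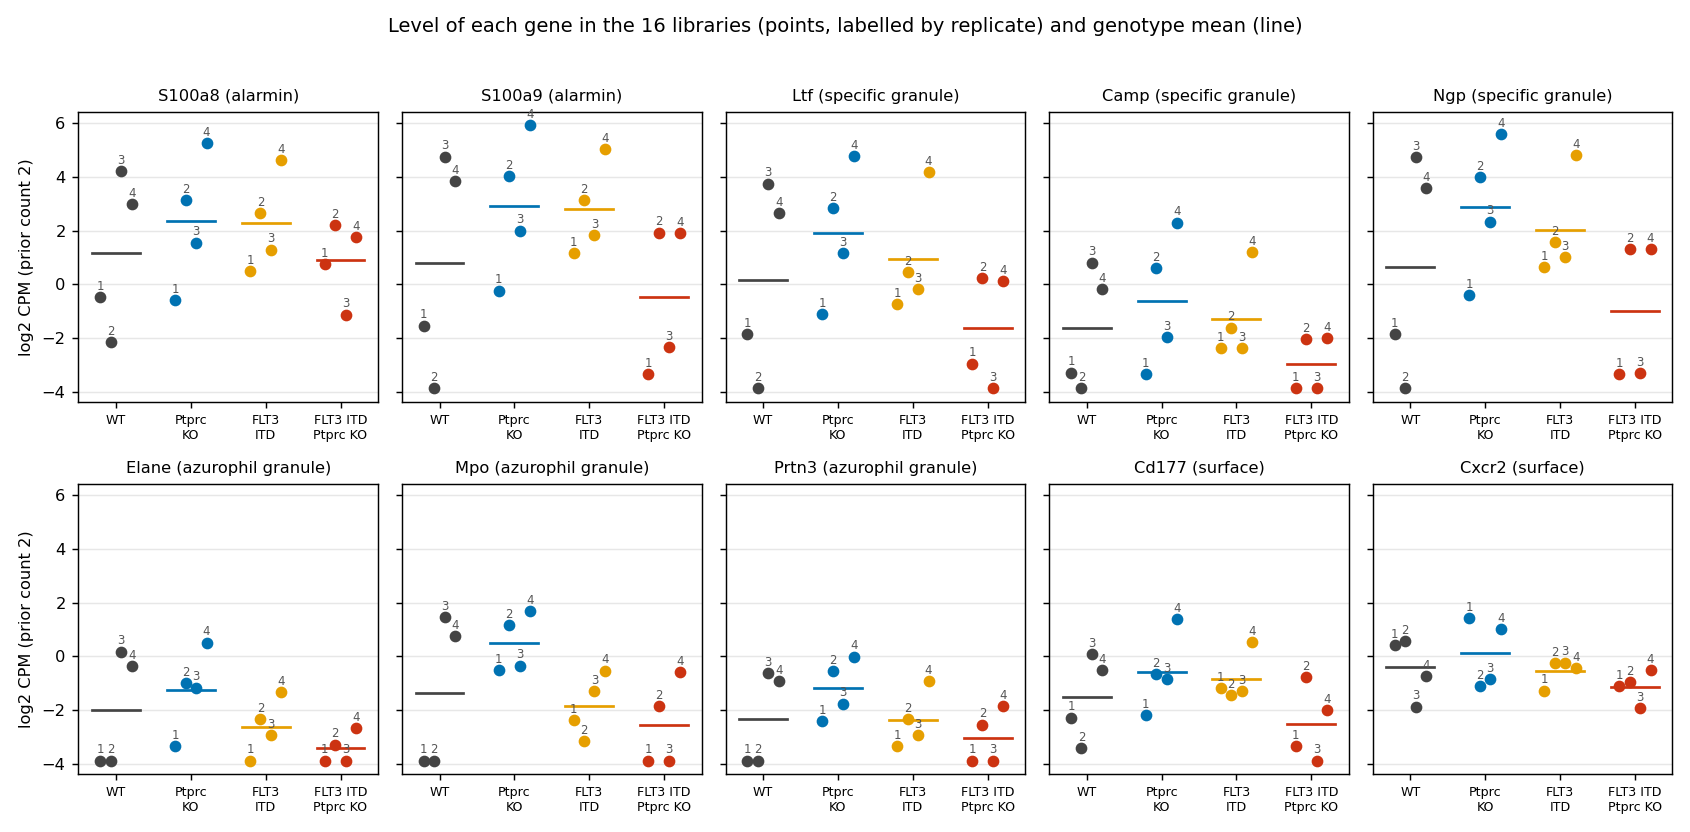
Level of each of the 10 genes on the log2 CPM scale (prior count 2) by genotype; points are libraries, labelled by replicate, and lines are the means of 4 libraries. In the S100a8, S100a9, Ltf and Ngp panels the WT points spread over most of the axis range that all panels share. They spread less in the other panels, and in the Cxcr2 panel the points lie closest together and in another order.

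The calprotectin genes lie tail to tail in a cluster of S100 genes, S100a8 (ENSMUSG00000056054) at GRCm38 chromosome 3, 90668978 to 90670035, plus strand, and S100a9 (ENSMUSG00000056071) at 90692632 to 90695721, minus strand, with 22596 bases between them. S100a8 had 19, 6, 542 and 223 counts in WT replicates 1 to 4, 20, 200, 76 and 1061 in Ptprc KO, 43, 145, 76 and 591 in FLT3 ITD, and 53, 131, 12 and 110 in the double mutant. These were 6.84 ± 8.62 CPM in WT, 12.5 ± 17.3 in Ptprc KO, 8.65 ± 10.8 in FLT3 ITD, and the double mutant had 2.46 ± 1.82 (SD, n = 4 each). Ptprc KO replicate 4 lay above every other library, the ranges of the 4 genotypes overlapped, and the lowest S100a8 values were in WT replicate 2 and double-mutant replicate 3. S100a9 had 8, 0, 785 and 399 counts in WT, 26, 369, 104 and 1714 in Ptprc KO, 69, 202, 111 and 783 in FLT3 ITD, and 1, 108, 4 and 123 in the double mutant. It stood at 10.4 ± 12.9, 20.5 ± 27.9, 11.7 ± 14.2 and 1.90 ± 2.10 CPM in the 4 genotypes in the same order (SD, n = 4 each). WT held both the library without any S100a9 count and one with 785.

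The specific granule genes lie near each other on chromosome 9, where Camp (109847379 to 109849617, minus strand), Ngp (110419747 to 110423012, plus strand) and Ltf (111019271 to 111042767, plus strand) span 1195389 bases. Ltf, an iron-binding protein, had 6, 0, 391 and 175 counts in WT, 13, 162, 58 and 762 in Ptprc KO, 17, 30, 26 and 432 in FLT3 ITD, and 2, 32, 0 and 34 in the double mutant. Ngp, a cystatin-related granule protein, had 6, 0, 782 and 334 counts in WT, 23, 361, 132 and 1342 in Ptprc KO, 48, 67, 62 and 670 in FLT3 ITD, and 1, 70, 1 and 81 in the double mutant. Camp, the precursor of an antimicrobial peptide, had 1, 0, 49 and 23 counts in WT, 1, 33, 5 and 136 in Ptprc KO, 4, 6, 4 and 54 in FLT3 ITD, and 0, 5, 0 and 6 in the double mutant. WT replicates 3 and 4, Ptprc KO replicates 2 and 4 and FLT3 ITD replicate 4 were high for all 3 genes, and no double-mutant library exceeded 81 counts of any. Ngp averaged 9.74 ± 12.7 CPM in WT, 17.4 ± 21.4 in Ptprc KO, 8.56 ± 12.9 in FLT3 ITD and, in double-mutant libraries, 1.23 ± 1.38 (SD, n = 4 each), and the ranges of the 4 genotypes overlapped.

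Among the azurophil granule genes, Elane and Prtn3 had the fewest counts of the 10. Elane (chromosome 10, 79886247 to 79888215, plus strand) had 0, 0, 31 and 20 counts in WT, 1, 10, 10 and 38 in Ptprc KO, 0, 3, 2 and 8 in FLT3 ITD, and 0, 1, 0 and 3 in the double mutant. Prtn3 lies 3072 bases before it on the same strand (79874476 to 79883174) and had 0, 0, 17 and 13 counts in WT, 4, 14, 6 and 26 in Ptprc KO, 1, 3, 2 and 11 in FLT3 ITD, and 0, 3, 0 and 7 in the double mutant. Mpo (chromosome 11, 87793581 to 87804413, plus strand), whose enzyme makes hypochlorous acid, had 0, 0, 79 and 46 counts in WT, 21, 50, 19 and 88 in Ptprc KO, 4, 1, 11 and 15 in FLT3 ITD, and 0, 6, 0 and 20 in the double mutant. All 4 Ptprc KO libraries carried Mpo, at 0.632 to 3.14 CPM. Mpo reached at most 0.624 CPM in FLT3 ITD and 0.600 CPM in the double mutant, so neither CPM range overlapped Ptprc KO. The WT range (0 to 2.71 CPM) overlapped all of them. Over all tested genes, ranges were apart for 2.51% between the single mutants and for 6.33% between Ptprc KO and the double mutant. In raw counts, double-mutant replicate 4 (20) lay above Ptprc KO replicate 3 (19), so the double mutant was apart only after scaling. FLT3 ITD stayed at 15 counts or fewer. Prtn3 overlaps Plppr3, and Mpo overlaps Gm11505, on the other strand, and the notes on counting do not mention strand, so reads of these pairs may not be told apart.

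The surface genes followed separate patterns. Cd177 (chromosome 7, 24743983 to 24760311, minus strand) had 4, 1, 29 and 18 counts in WT, 5, 13, 13 and 72 in Ptprc KO, 12, 7, 11 and 33 in FLT3 ITD, and 1, 15, 0 and 6 in the double mutant, with its highest libraries among those high for the granule genes. Cxcr2 (chromosome 1, 74153989 to 74161246, plus strand) had 37, 53, 6 and 15 counts in WT, 87, 9, 13 and 55 in Ptprc KO, 11, 18, 25 and 16 in FLT3 ITD, and 13, 13, 6 and 21 in the double mutant. Within WT, Cxcr2 was thus highest in replicates 1 and 2, where the granule genes were near 0, and lowest in replicate 3, where they were high. It was counted in every library, at 0.856 ± 0.580 CPM in WT, 0.643 ± 0.206 in FLT3 ITD and, for the double mutant, 0.418 ± 0.179 (SD, n = 4 each). In Ptprc KO its mean was 1.37 CPM with the highest single library of all at 2.62 CPM, and the ranges of the 4 genotypes overlapped.

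**Figure D2:**
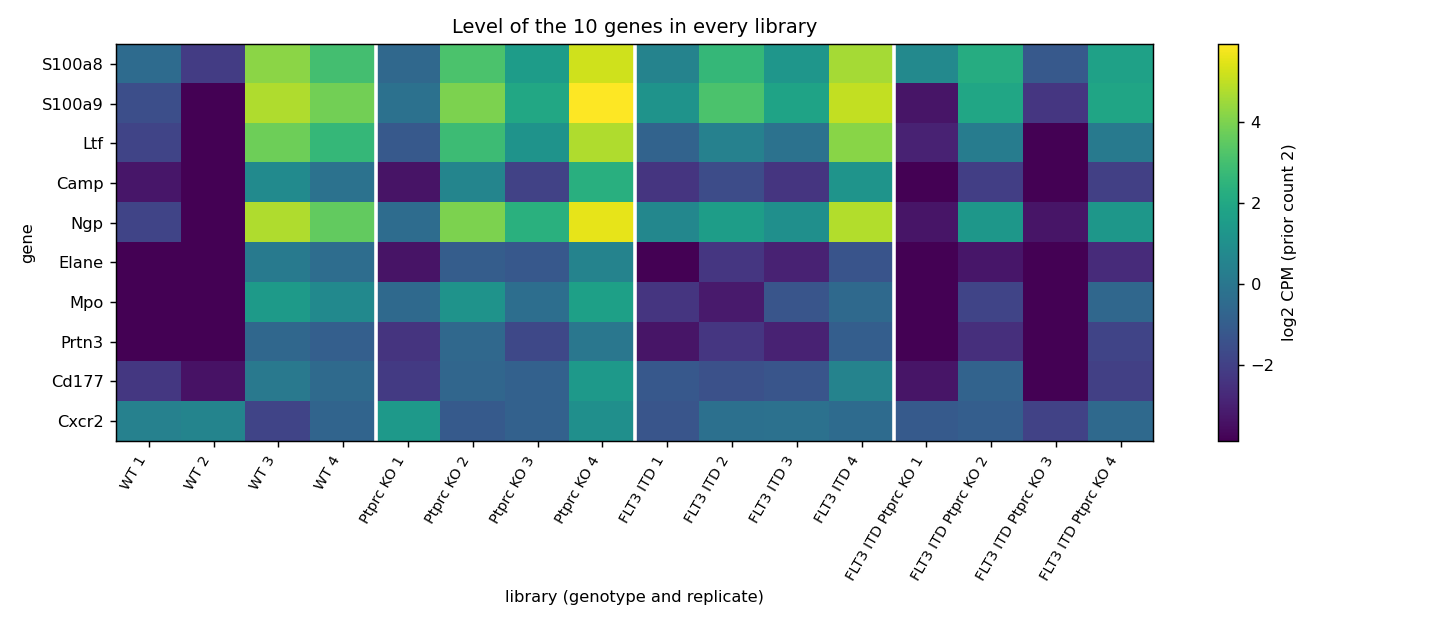
Heat map of the level of the 10 genes (rows) in the 16 libraries (columns, grouped by genotype), on the log2 CPM scale with a prior count of 2. In the rows from S100a8 to Ngp and those of Prtn3 and Cd177, the highest libraries are WT 3 and 4, Ptprc KO 2 and 4 and FLT3 ITD 4. In the Elane and Mpo rows FLT3 ITD 4 is below Ptprc KO 3, and the Cxcr2 row has another order.

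The 9 genes other than Cxcr2 varied together across libraries. Pearson's r of log2 CPM over the 16 libraries lay between 0.756 and 0.989 for the 36 pairs without Cxcr2, with a median of 0.926. The 9 pairs with Cxcr2 lay between −0.133 and 0.0608. These coefficients are a description: all points share the depth and composition of their library, and the low counts of Elane, Prtn3 and Camp put several libraries at the same floor. For S100a8 and S100a9, the 1 relation set for a test, Pearson's r was 0.93 and Spearman's rho 0.96 (16 libraries, two-sided permutation p = 1e-05 for each, the smallest that 100000 resamples can give). Adjustment over this single relation leaves these p-values as they are. Without WT replicate 2 and Ptprc KO replicate 4, the libraries farthest from the median of S100a8, r was 0.89 and rho 0.94. A genotype has only 4 libraries, too few for a coefficient within it.

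Among all 12093 tested genes, those most like S100a8 by Pearson's r over the 16 libraries were Lcn2 (0.964), Ltf (0.948), Itgb2l (0.943), Camp (0.937) and S100a9 (0.930). Those most like Ngp were Ltf (0.989), S100a9 (0.988), Chil3 (0.975), Lcn2 (0.973) and Ly6c2 (0.961). For Elane they were Prtn3 (0.946), Chil3 (0.937), Ltf (0.916), Camp (0.912) and Itgb2l (0.909). Lcn2, the siderophore-binding protein of specific granules, had 1, 0, 165 and 68 counts in WT, 11, 56, 25 and 335 in Ptprc KO, 19, 23, 17 and 255 in FLT3 ITD, and 4, 31, 1 and 25 in the double mutant. Cxcr2 had no gene as close: Yju2 (0.721), Phf7 (0.659), Lipc (0.647), Eral1 (0.642) and Bfar (0.635) led, and Yju2 itself varied only from 16.7 to 26.5 CPM.

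Promoter sequences are shown for 6 of the genes that varied together, because they hold short motifs of transcription factors of granulocyte development. RefSeq starts on GRCm38.p6 were found for all 10 genes. In the 250 bases before the start, on both strands, 4 motifs were searched: a C/EBP-type motif (TTGCNNAA), a PU.1-type motif (GAGGAAGT), the ETS core GGAAGT that lies inside the PU.1-type motif, and TATAAA. C/EBP proteins and PU.1 are known to drive granule genes. Of 32536 promoters of that length, 2.45% held the PU.1-type motif and 9.57% the C/EBP-type motif, and 4 and 3 of the 10 genes did. The 4 with GAGGAAGT were Elane, Prtn3 and Mpo, all of the azurophil genes, and S100a8. The 3 with the C/EBP-type motif were S100a9, Ltf and Ngp. The ETS core was in 19.8% of promoters and in 7 of the 10 genes, and TATAAA in 12.3% of promoters and in 2 genes (S100a8 and Cd177). The stretches printed here end where the first annotated exon begins and are written 5′ to 3′ on the strand of the gene, with the motif in capitals. The azurophil stretches, with the PU.1-type motif, are those of Elane (chr10:79886062-79886246, plus strand, 185 bases), Prtn3 (chr10:79879417-79879613, plus strand, 197 bases) and Mpo (chr11:87793534-87793580, plus strand, 47 bases). That of Prtn3 lies inside the span of the longer GENCODE gene model, outside its exons.
Elane: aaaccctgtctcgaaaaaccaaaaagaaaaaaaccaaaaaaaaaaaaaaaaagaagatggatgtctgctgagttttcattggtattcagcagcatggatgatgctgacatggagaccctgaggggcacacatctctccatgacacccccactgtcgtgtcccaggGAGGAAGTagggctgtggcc
Prtn3: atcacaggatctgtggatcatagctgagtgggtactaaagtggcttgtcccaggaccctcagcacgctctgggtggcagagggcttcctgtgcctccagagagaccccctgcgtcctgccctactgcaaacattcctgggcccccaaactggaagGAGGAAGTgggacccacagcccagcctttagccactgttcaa
Mpo: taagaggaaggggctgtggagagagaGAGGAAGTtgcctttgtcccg
The stretches with the C/EBP-type motif are those of S100a9 (chr3:90695722-90695971, minus strand, 250 bases), Ltf (chr9:111019042-111019270, plus strand, 229 bases) and Ngp (chr9:110419558-110419746, plus strand, 189 bases). The match in Ltf is on the other strand. Ngp has a second match, also on the other strand, closer to its start, beyond the stretch printed.
S100a9: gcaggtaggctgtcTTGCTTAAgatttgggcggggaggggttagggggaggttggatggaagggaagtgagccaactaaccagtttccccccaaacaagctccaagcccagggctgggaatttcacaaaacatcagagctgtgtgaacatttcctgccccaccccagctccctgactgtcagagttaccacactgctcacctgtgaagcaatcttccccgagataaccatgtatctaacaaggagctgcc
Ltf: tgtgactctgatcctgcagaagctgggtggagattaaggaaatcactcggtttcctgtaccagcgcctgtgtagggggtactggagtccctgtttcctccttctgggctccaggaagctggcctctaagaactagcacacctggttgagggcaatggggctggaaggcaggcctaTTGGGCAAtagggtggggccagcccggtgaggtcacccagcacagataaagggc
Ngp: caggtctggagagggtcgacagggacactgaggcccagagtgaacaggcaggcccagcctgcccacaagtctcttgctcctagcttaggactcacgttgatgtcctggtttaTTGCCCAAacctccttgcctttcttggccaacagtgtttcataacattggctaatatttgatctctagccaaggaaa
A match of letters is a description and not evidence of binding, and no accessibility or binding was measured in these cultures. Spi1, the gene of PU.1, was well expressed in every library, at 485 to 1004 CPM, and Cebpe, the C/EBP member of late granulocyte development, at 0.340 to 1.83 CPM.

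The design asks what each mutation does to expression and whether one depends on the other. All 10 genes passed the filter on low counts over the 16 libraries together. All were thus among the 12093 genes tested in 1 edgeR quasi-likelihood fit, with Benjamini-Hochberg adjustment over all of them and a threshold of 0.05. Set on only the groups compared, the filter left 5 of the 10 in the double mutant against WT. It left 6 against FLT3 ITD and 7 against Ptprc KO. For FLT3 ITD it left 6 against WT and 7 against Ptprc KO, and for Ptprc KO against WT all 10. The rest passed only with the libraries of other genotypes counted. In the test for any difference among the 4 genotypes, 0 of the 10 were called by edgeR, where 0.223% of all tested genes were called. At an unadjusted p under 0.05 there were 0 as well, against 12.5% of all genes. DESeq2 called 0, against 3.78% of all genes, with 0 at an unadjusted p under 0.05 (18.5% of all genes). The lowest adjusted p among the 10 was 0.428 (edgeR). The share of each gene's variance that lay between genotypes had a median of 24.3% over the 10 genes and 26.0% over all tested genes. With 4 groups of 4 libraries such a share is well above 0 even where genotype has no effect. The spread within genotypes was wide: the fitted coefficient of biological variation had a median of 1.40 over the 10 genes, against 0.263 over all, and 9 of the 10 lay at percentile 98.9 or above among all tested genes (Cxcr2 at 90.2).

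Loss of CD45 with normal Flt3 (Ptprc KO against WT) left no gene of the 10 past the threshold (0 by edgeR, against 0.0331% of all tested genes). There were 0 at an unadjusted p under 0.05, where 0.843% of all genes stood, and DESeq2 called 0 (0.0913% of all genes). All 10 fitted values were above 0, with a median log2 fold change of 0.87 against 0.02 over all genes, and 45.1% of all genes had a value below 0. Camp had the highest, at 1.37 (SE 1.43), and S100a9 had 0.99 (SE 1.59, adjusted p = 0.9998 for both, edgeR). Ranges of libraries were apart for 0 of the 10 genes and for 1.41% of all. The sign rested on Ptprc KO replicate 4: without it 7 of the 10 values were below 0, S100a8 at −0.78 and S100a9 at −0.60, and the median was −0.36. Elane was at −0.10 without WT replicate 1 and −0.12 without WT replicate 2, and without WT replicate 3 the median was 1.96.

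FLT3 ITD against WT gave 5 values above and 5 below 0, with a median log2 fold change of −0.07 against 0.04 over all genes (45.5% of all genes were below 0). None of the 10 was called by edgeR (0, against 0.0413% of all genes), and 0 had an unadjusted p under 0.05 (8.45% of all genes). DESeq2 called 0 as well (0.498% of all genes). Ranges were apart for 0 of the 10, and for 6.09% of all genes. Without FLT3 ITD replicate 4, all 10 values were below 0 with a median of −1.84, and without WT replicate 3 the median was 1.13.

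**Figure D3:**
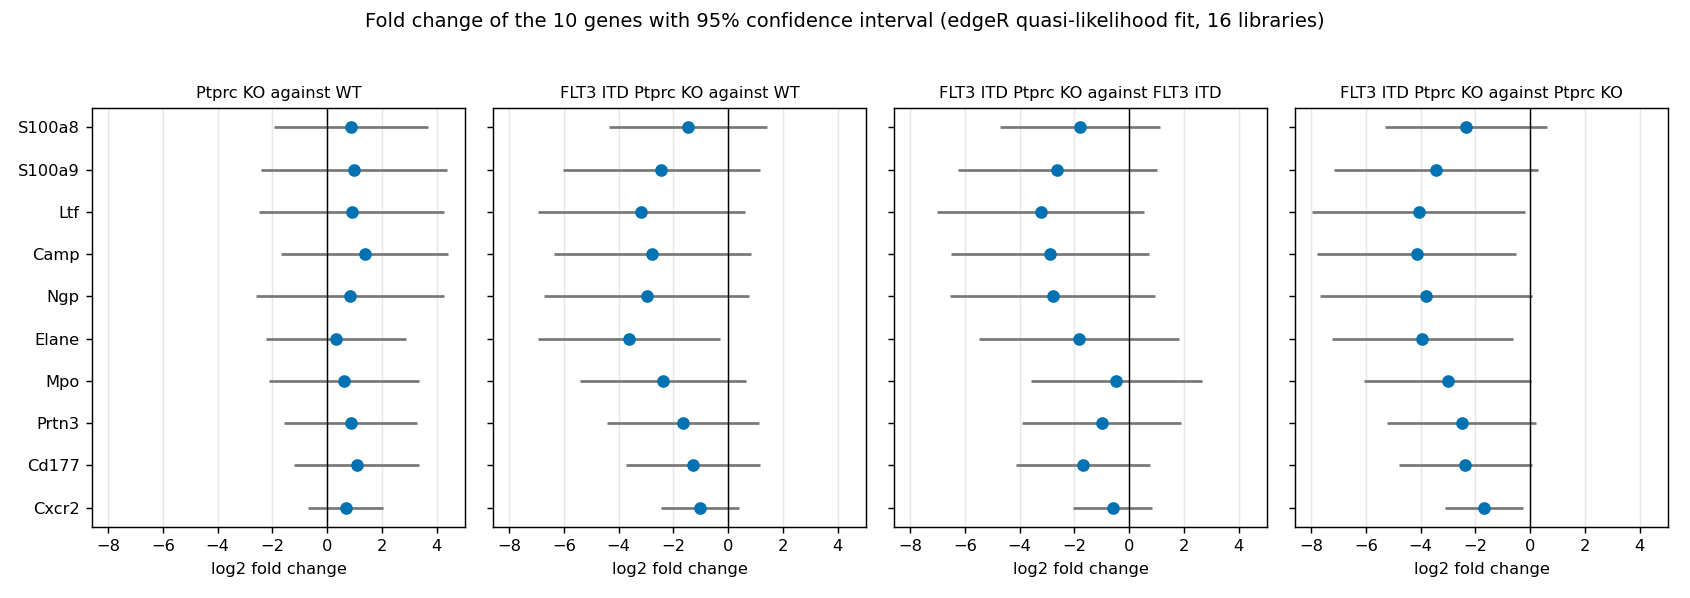
Log2 fold change of the 10 genes in 4 comparisons of genotypes, with 95% confidence intervals from the edgeR fit. The points of the 3 comparisons of the double mutant lie to the left of 0, and most intervals cross 0.

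The double mutant had the lowest mean of every gene. Against WT all 10 log2 fold changes were below 0 (43.7% of all genes were), with a median of −2.42 against 0.05 over all genes. None passed the threshold (0 by edgeR, against 0.108% of all genes, and 0 by DESeq2, against 0.971%). The lowest adjusted p was 0.601 (edgeR). At an unadjusted p under 0.05 stood 1 gene, Elane, where 7.89% of all genes did, with a log2 fold change of −3.62 (SE 1.56) resting on at most 3 counts in any double-mutant library. DESeq2 also had 1 at that level (9.89% of all genes by DESeq2). Ranges were apart for 0 of the 10 and 5.5% of all genes. Without WT replicate 3 the median was −1.39, and no gene had an unadjusted p under 0.05 without WT replicate 3, WT replicate 4 or double-mutant replicates 1, 2 or 3.

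Against FLT3 ITD, which asks what CD45 loss does where FLT3 is mutated, all 10 values were again below 0, where 48% of all genes were. The median log2 fold change was −1.83 against 0.03 over all genes, from −3.23 (SE 1.77) for Ltf to −0.47 (SE 1.46) for Mpo. edgeR called 0 of the 10 (0.00827% of all genes), and 0 had an unadjusted p under 0.05 (25.7% of all genes). DESeq2 called 0 of the 10, where it called 8.17% of all genes. The lowest adjusted p was 0.252, for Ltf (edgeR), and ranges were apart for 0 of the 10 and 8.47% of all genes. Without FLT3 ITD replicate 4 the median was −0.73, Mpo was at 0.20 and Prtn3 at 0.15.

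The widest difference lay between the double mutant and Ptprc KO, which asks what FLT3 ITD does where CD45 is absent. All 10 values were below 0 (45.6% of all genes were), with a median log2 fold change of −3.22 against 0.04 over all genes. None passed the threshold (0 by edgeR, against 0.091% of all genes, and 0 by DESeq2, against 2.76%). At an unadjusted p under 0.05 there were 4 by edgeR (17.8% of all genes) and 8 by DESeq2 (21.2% of all genes). The 4 were Cxcr2 at −1.71 (SE 0.67), Elane at −3.94 (SE 1.55), Camp at −4.15 (SE 1.70) and Ltf at −4.07 (SE 1.82), and their adjusted p-values ran from 0.254 to 0.276 (edgeR). S100a8 had the smallest log2 fold change after Cxcr2, at −2.35 (SE 1.39). Ranges were apart for 1 gene, Mpo, and for 6.33% of all genes. The count at an unadjusted p under 0.05 was 0 without Ptprc KO replicate 4 (median −2.22) and 0 without double-mutant replicate 3 (median −2.82), 1 without double-mutant replicate 1, and 9 without WT replicate 2 (15.5% of all genes).

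The single mutants were compared as well. FLT3 ITD against Ptprc KO had all 10 values below 0 (46.8% of all genes were) with a median log2 fold change of −1.06 against 0.02 over all genes. Here edgeR called 0 (0.0744% of all genes), with 0 at an unadjusted p under 0.05 (3.91% of all genes). DESeq2 called 0 (0.398% of all genes). Ranges were apart for Mpo alone among the 10, and for 2.51% of all genes. Without Ptprc KO replicate 4 the median was 0.32. The interaction, the FLT3 ITD effect without CD45 minus that with it, was below 0 for all 10 (48.8% of all genes), with a median of −2.73 on the log2 scale against 0.02. It was called for 0 of the 10 by edgeR (0.00827% of all genes) and 0 by DESeq2 (1.37% of all genes). At an unadjusted p under 0.05 there were 0 by edgeR (17.5% of all genes) and 1 by DESeq2 (21.2%). Its lowest adjusted p was 0.315, for Camp (−4.26, SE 2.21, edgeR). The comparisons share groups, so their signs are not independent of each other, and 9 of the genes vary together, so 10 values of one sign are far from 10 separate observations.

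The make-up of the granule counts also differed between libraries. These shares were set after the values were seen and carry no test, and their exact Clopper-Pearson 95% intervals cover counting error only. S100a9 made up 59.2% and 64.1% of the S100a8 and S100a9 counts in WT replicates 3 and 4, 56.5%, 64.9%, 57.8% and 61.8% in Ptprc KO, and 61.6%, 58.2%, 59.4% and 57.0% in FLT3 ITD. In double-mutant replicates 2 and 4 the share was 45.2% (38.8 to 51.7) and 52.8% (46.2 to 59.3). In double-mutant replicate 1 it was 1.85% (0.0469 to 9.89), 1 of 54 counts, so that this library carried S100a8 nearly without S100a9. WT replicates 1 and 2 had 29.6% of 27 and 0 of 6 counts (up to 45.9%), and double-mutant replicate 3 had 25% of 16. Recomputed from TPM, the share in double-mutant replicate 3 was 43.6%, that in replicate 1 was 1.19%, and the libraries with over 100 such counts lay between 44.5% and 66.6%.

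The azurophil genes Elane, Mpo and Prtn3 made up 9.41% (7.91 to 11.1) and 12.9% (10.4 to 15.9) of the azurophil and specific granule counts in WT replicates 3 and 4. In Ptprc KO they made up 41.3% (29.0 to 54.4), 11.7%, 15.2% and 6.35% (5.41 to 7.41). In FLT3 ITD the shares were 6.76%, 6.36%, 14.0% and 2.86% (1.99 to 3.97), and in double-mutant replicates 2 and 4 they were 8.55% and 19.9% (13.8 to 27.1). Ptprc KO replicate 1, with 63 such counts, had the highest share, and FLT3 ITD replicate 4, with 1190, the lowest of the libraries above 0. The library with the most such counts had the lowest share in Ptprc KO and in FLT3 ITD (replicate 4 of each). In WT that library, replicate 3, had a lower share than replicate 4, and only replicate 1, with few counts, was lower. In the double mutant the library with the most such counts had the highest share (replicate 4). WT replicate 1 and double-mutant replicates 1 and 3 had 0 of 13, 0 of 3 and 0 of 1 counts, which allows shares of up to 24.7%, 70.8% and 97.5%, and WT replicate 2 had no count of these genes.

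**Figure D4:**
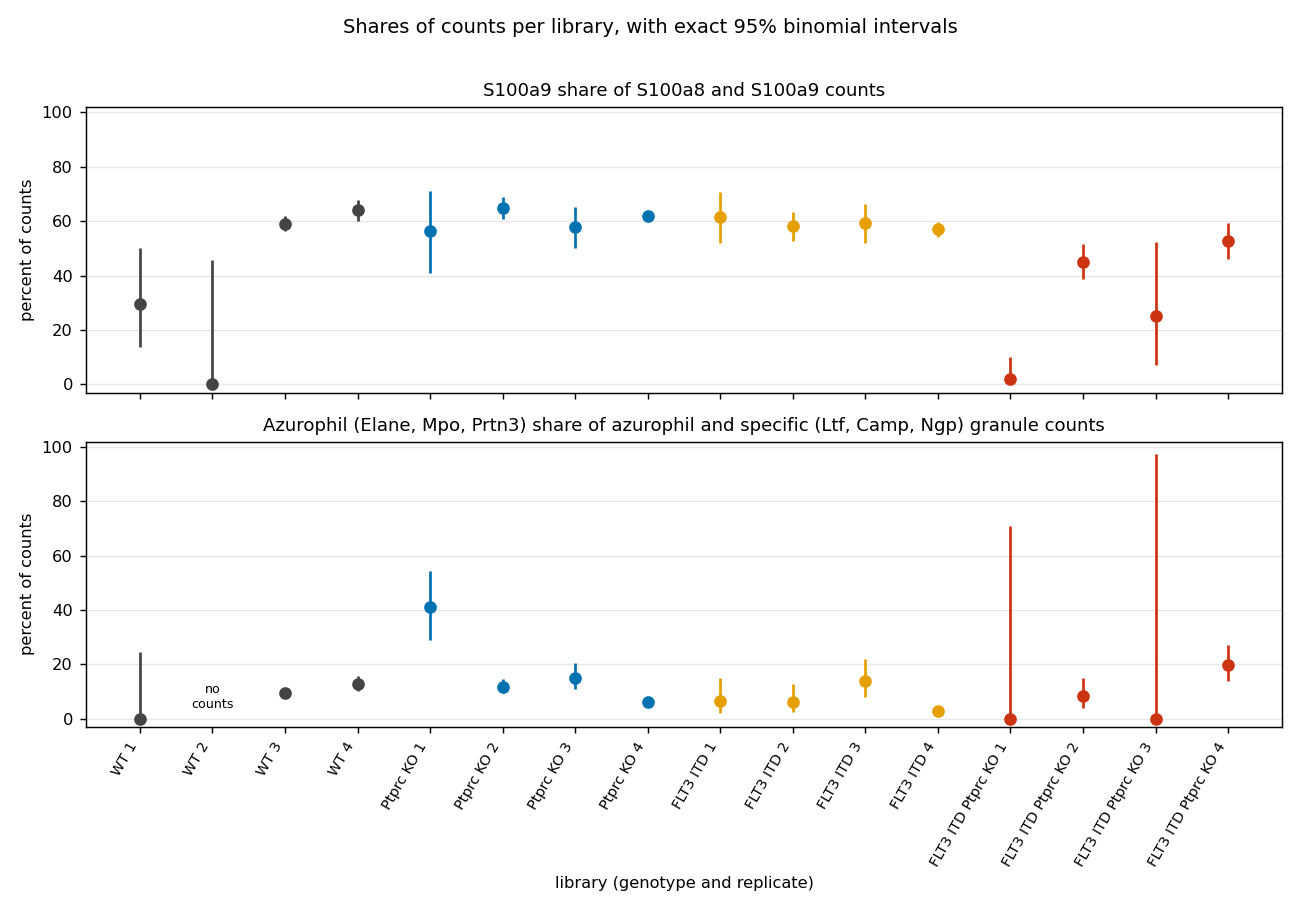
Shares of counts in each library, in percent, with exact 95% binomial intervals: S100a9 among S100a8 and S100a9 counts (upper panel) and azurophil among azurophil and specific granule counts (lower panel). In the upper panel double-mutant replicate 1 lies at 1.85%, and in the lower panel Ptprc KO replicate 1 lies at 41.3%.

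Other genes of the pathway came from 7 lists with 67 genes, of which 51 were tested: further azurophil (7 of 8 tested), specific and tertiary granule (12 of 18), receptor and chemotaxis (10 of 14), granulopoiesis factor (6 of 7), chemokine ligand (4 of 7), S100 (7 of 8) and S100 receptor genes (5 of 5). edgeR called 0 of the 51 in every one of the 6 pairs of genotypes and in the interaction. At an unadjusted p under 0.05 there were 4 in FLT3 ITD against WT (8.45% of all genes), 0 in Ptprc KO against WT (0.843%) and 2 in the double mutant against WT (7.89%). The double mutant had 4 against FLT3 ITD (25.7% of all genes) and 9 against Ptprc KO (17.8%). FLT3 ITD against Ptprc KO had 2 (3.91%) and the interaction 5 (17.5%). DESeq2 called Serpinb1a in both comparisons of the double mutant with a single mutant and in the interaction, and Spi1 in the double mutant against FLT3 ITD. DESeq2 called 8.17% of all genes in the double mutant against FLT3 ITD, 2.76% against Ptprc KO and 1.37% in the interaction. Serpinb1a, named here after its values were seen, encodes an inhibitor of neutrophil elastase and proteinase 3. It had 42, 103, 50 and 50 counts in WT, 72, 64, 73 and 41 in Ptprc KO, 105, 129, 79 and 31 in FLT3 ITD, and 12, 10, 20 and 41 in the double mutant. Its log2 fold change in the double mutant was −2.27 (SE 0.48, adjusted p = 0.103, edgeR) against FLT3 ITD and −1.81 (SE 0.48, adjusted p = 0.147, edgeR) against Ptprc KO.

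Many genes of these lists belong to osteoclasts or macrophages as much as to granulocytes, and they were far higher than the 10 genes. By mean level, the leading ones were Mmp9 (16720 CPM), Lyz2 (7881 CPM), Cd63 (805 CPM), Cyba (609 CPM), Cybb (510 CPM) and Lamp2 (314 CPM). Calprotectin's relatives S100a10 (399 CPM), S100a6 (191 CPM) and S100a11 (152 CPM) and its receptor genes Cd36 (819 CPM), Bsg (293 CPM) and Tlr4 (48.5 CPM) were present in every library. The receptor and chemotaxis list was led by Cxcr4 (22.4 CPM), Padi4, a histone-modifying enzyme of neutrophils (7.40 CPM), and the G-CSF receptor Csf3r (5.19 CPM). Among the transcription factors Spi1 (655 CPM), Cebpb (67.4 CPM) and Cebpa (63.1 CPM) led. The chemokine ligands were led by Cxcl2 (42.6 CPM), Cxcl3 (14.8 CPM) and Ppbp (4.71 CPM). Cxcl2, a ligand of Cxcr2, ranged from 0.588 to 337 CPM and Cxcr2 itself from 0.195 to 2.62 CPM.

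Markers of other cells moved with the granule genes in some libraries and not in others. The 8 monocyte markers, all tested, summed to 41.1 to 283 CPM in WT, to at most 302 in Ptprc KO, 66.8 to 995 in FLT3 ITD and 107 to 554 in the double mutant. Cd14 made up most of this sum, with a mean of 155 CPM over the 16 libraries and a maximum of 862 CPM. Vcan had a mean of 25.1 CPM and Ly6c2 of 0.552 CPM, so the sum says little about Ly6c2, which was among the genes most like Ngp. WT replicate 3, Ptprc KO replicate 4 and FLT3 ITD replicate 4 were the highest of their genotype both for these markers and for the 10 genes. Double-mutant replicate 2 had more of these markers (554 CPM) than any library except FLT3 ITD replicate 4, and replicate 1 had 230 CPM, while the 10 genes summed to 13.3 CPM in replicate 2 and 2.18 CPM in replicate 1. The chemokine ligand list was high in the same libraries, at 59.9, 180 and 275 CPM in WT replicate 3, Ptprc KO replicate 4 and FLT3 ITD replicate 4, and at 42.7 and 443 CPM in double-mutant replicates 1 and 2. The osteoclast markers were lowest in FLT3 ITD replicate 4 (8745 CPM) within that genotype, and at 4139, 4127 and 3724 CPM in double-mutant replicates 1, 2 and 4 against 19478 CPM in replicate 3. All 10 osteoclast markers had log2 fold changes below 0 in the double mutant, as the 10 granulocyte genes did. Their median was −0.96 against WT, −1.46 against FLT3 ITD and −1.40 against Ptprc KO. Over all genes, 43.7%, 48% and 45.6% were below 0 in these comparisons. Within the double mutant the 2 sets did not run together: replicate 3 had the highest osteoclast sum and the lowest sum of the 10 genes (0.749 CPM). Of the 44 tested genes of the 9 marker lists, edgeR called 0 in each comparison. DESeq2 called 4 in the double mutant against FLT3 ITD (Calcr, Ctsk, Itgb3 and Prg2), where 8.17% of all genes were called. Against Ptprc KO it called 6 (Calcr, Ear2, Epor, Itgb3, Prg2 and Siglecf), where 2.76% of all genes were. Against WT DESeq2 called 5 (Calcr, Cd34, Ear2, Epor and Prg2), where 0.971% of all genes were. In the interaction it called 3 (Calcr, Itgb3 and Prg2), where 1.37% were. In FLT3 ITD against WT it called 2 (Cd34 and Epor), where 0.498% were. At an unadjusted p under 0.05, edgeR had 11 of the 44 in the double mutant against FLT3 ITD (25.7% of all genes) and 13 against Ptprc KO (17.8%). There were 9 against WT (7.89%), 9 in the interaction (17.5%) and 10 in FLT3 ITD against WT (8.45%). Ptprc KO against WT had 1 (0.843%), and 3 lay between the single mutants (3.91%). Lymphoid markers (8 of 9 in the table) summed to 0.0796 to 3.43 CPM, highest in Ptprc KO replicate 4. The 9 eosinophil markers summed to 21.2 to 87.6 CPM with Epx, the defining peroxidase, at 0 in every library, and 4 of the 9 mast cell and basophil markers were at 0 in every library. Progenitor markers summed to 2.60 to 13.2 CPM, stromal markers to 6.37 to 48.1 CPM, erythroid markers to at most 1.39 CPM and the 9 macrophage markers to 2605 to 8087 CPM. The part of these other cells in the levels of the 10 genes was not tested.

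**Figure D5:**
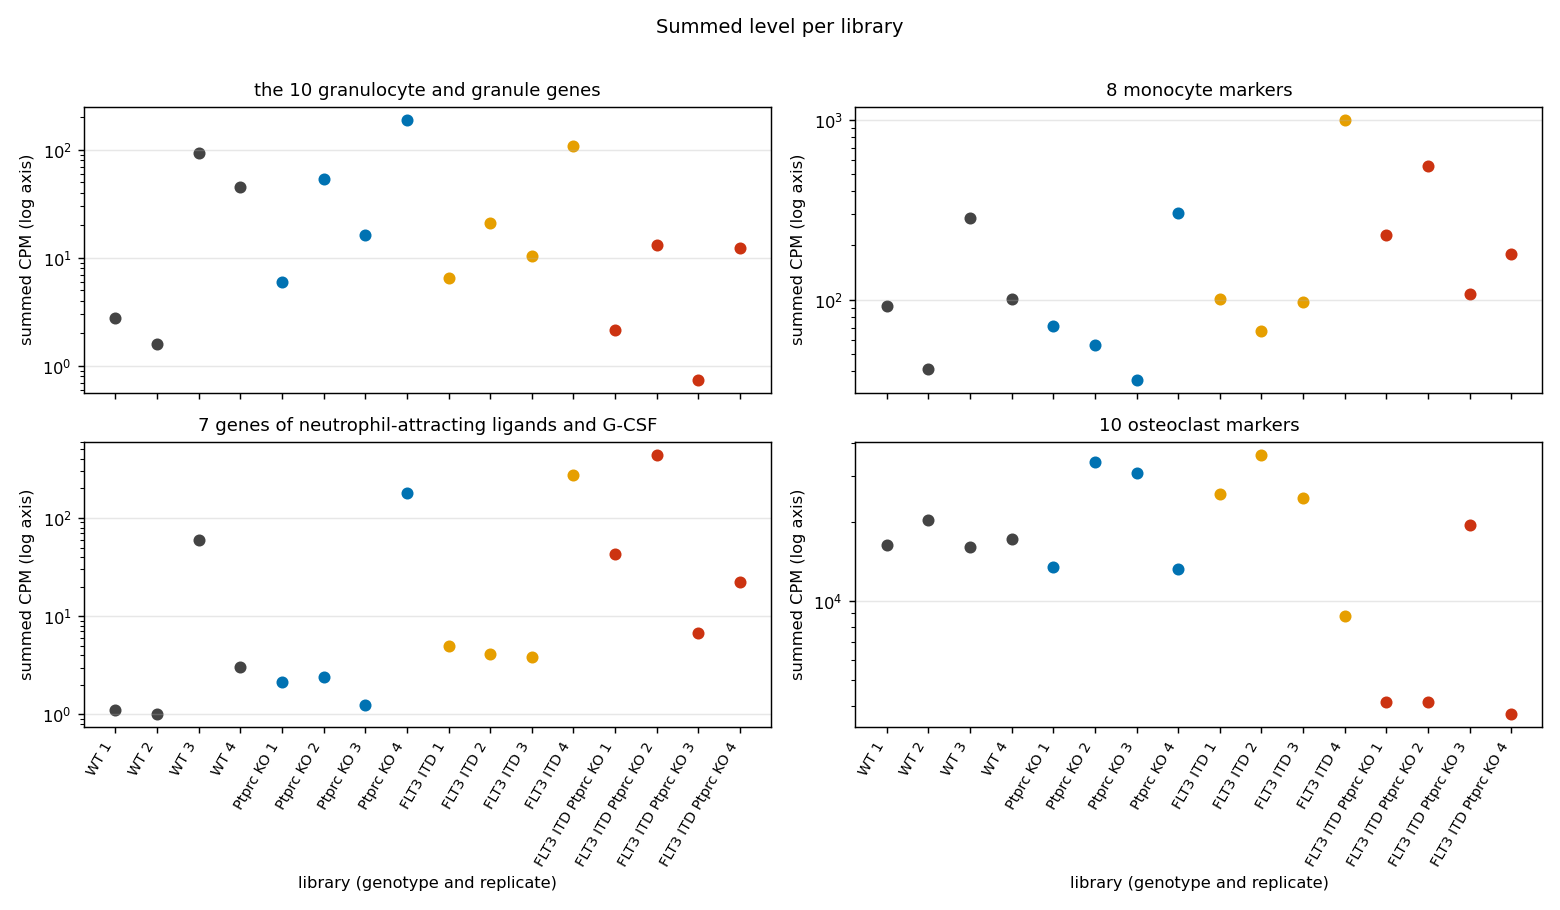
Summed CPM per library, each on its own log axis, of the 10 genes, of 8 monocyte markers, of 7 genes of neutrophil-attracting ligands and G-CSF, and of 10 osteoclast markers. WT 3, Ptprc KO 4 and FLT3 ITD 4 are the highest of their genotype in the first 3 panels, and double-mutant replicate 2 is high in the monocyte and ligand panels while the 10 genes sum to 13.3 CPM there.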

How the data were processed

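Poly(A) RNA libraries from 16 cultures (4 genotypes, 4 libraries each) were made from 500 ng of RNA with a strand-specific kit and UMI adaptors, per the labels' protocols. The authors deposited raw counts per gene, whole numbers without normalization, and a table of TPM, scaled for gene length and library total. The TPM are not these counts rescaled by the deposited gene lengths. In double-mutant replicate 3, S100a9 made up 25% of the S100a8 and S100a9 counts, and 43.6% when recomputed from TPM. Per the submitters' processing notes, reads passed through STAR 2.7.6a, featureCounts 2.0.3, UMI-tools 1.1.1, cutadapt 4.2 and bcl2fastq 2.20.0.422 (no order given) with GRCm38.p6; settings and strand use are not stated there.

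The test was edgeR's robust quasi-likelihood test (version 4.0.16, R 4.3.3) after filterByExpr and TMM scaling. One model held a mean for each genotype, with 12 residual degrees of freedom; p-values are two-sided and Benjamini-Hochberg adjusted over 12093 genes. CPM were scaled by TMM, and log2 CPM were taken with 2 as the prior count. Standard errors are the absolute fold change on the log2 scale divided by the root of F. Total counts of 24211724 to 35773313 set the counting precision; the common coefficient of variation between replicates was 0.37. Positions came from GENCODE M21 (21817 deposited gene IDs found), and promoter sequences from RefSeq on GRCm38.p6. TPM served only to compare levels between genes and as an alternative.

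The 10 genes and all lists were chosen with earlier results of these data known. Named beside the 10 genes were Ptprc and Itgam, list genes past the threshold, the 3 of each neutrophil list with the highest mean CPM, any list gene that a result turns on, and the 5 genes most like S100a8, Ngp, Elane and Cxcr2. Tried instead were a replicate block, size factors by RLE, the filter dropped or set to a mean count of 50, a fit to only the groups compared, DESeq2 1.42.0, limma 3.58.1 on log2(TPM + 1) and log2(TPM + 0.1) above a mean TPM of 1, FLT3 ITD replicates 1 and 3 summed, and each library left out. Added after seeing the data were that sum with FLT3 ITD replicate 2 left out, the shares recomputed from TPM, and the S100a8 and S100a9 relation without each library. Correlation p-values came from SciPy 1.17.1. The scripts were tested on simulated counts. Changes were set there only in genes with a mean count of at least 50, with a spread taken from the trend over genes. That test therefore does not show whether genes as low and as variable as most of the 10 could be called.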

Additional observations from a re-analysis of the deposited data

Results flagged for a closer look

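Within a genotype, a library whose gap to the nearest of the others exceeds Dixon's critical share of the range of the 4 values was singled out, in 48 groups of values, of which 2 met the rule; chance does so in about 5% of groups. Cd177 stood at 0.53 log2 CPM in FLT3 ITD replicate 4, against −1.43 to −1.17 in the other libraries of that genotype. The summed level of the 10 genes stood at 109 CPM in the same library, against 6.55 to 20.9 CPM in the others. The same library had the highest monocyte markers (995 CPM) and the lowest osteoclast markers (8745 CPM) of its genotype.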

How the results depend on the processing

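All 206 alternative counts of genes past the threshold were 0, under every setting and each library left out, and, in Ptprc KO against WT, the 3 comparisons of the double mutant and the interaction, 1197 alternative log2 fold changes had the sign of the value reported and 11 turned with 1 library left out. Over the libraries left out, Ptprc KO against WT ran from −0.24 to 2.54 for Camp, −0.18 to 1.83 for Cd177, −0.69 to 1.23 for Elane, −0.65 to 2.11 for Ltf, −0.47 to 2.11 for Ngp, −0.78 to 2.11 for S100a8 and −0.60 to 2.09 for S100a9. The double mutant against FLT3 ITD ran from −2.03 to 0.20 for Mpo and −2.18 to 0.15 for Prtn3. In the other comparisons, where no single value is given, signs turned as well. With libraries left out, 3 to 10 of the 10 values were below 0 in FLT3 ITD against WT (8 under the replicate block), and 4 to 10 in FLT3 ITD against Ptprc KO. The cause was not tested. No label says that the replicate numbers pair the samples. Deviations of same-numbered libraries had r from −0.633 to 0.851, a range that cannot decide whether some of them share a batch. With the replicate number as a block, 0 of the 10 genes were called in any comparison, and 7 had an unadjusted p under 0.05 in the double mutant against Ptprc KO (21% of all genes did, lowest adjusted p 0.131, edgeR), where 47 genes were called over all, against 11 without the block. Over all genes, DESeq2 called more than edgeR: 332 against 11 in that comparison, 984 against 1 in the double mutant against FLT3 ITD, 117 against 13 in the double mutant against WT, 60 against 5 in FLT3 ITD against WT, 11 against 4 in Ptprc KO against WT, 48 against 9 between the single mutants, 165 against 1 in the interaction and 456 against 27 for any difference. A mean count of at least 50 left 4 of the 10 genes, and a mean TPM of at least 1 left 6. A fit to only the groups compared left 5 to 10 of them. Without each library in turn, r of S100a8 and S100a9 ran from 0.909 to 0.981. At these counts (a median of 2.5 for Elane and 3.5 for Prtn3) differences of single counts decide the low libraries.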
